A study of Mus musculus with 34 samples.

Results

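LXR binding was compared between Kupffer cells, the resident macrophages of the liver, and bone marrow-derived macrophages (BMDM) exposed to the LXR agonist GW3965. The members are the whole peak lists of 4 chromatin immunoprecipitation sequencing (ChIP-seq) libraries out of the 34 samples of the series, 2 per cell type. Peaks of the 4 lists that overlapped by at least 1 bp were joined into 114186 intervals, and an interval was taken as reproducible in a cell type where both of its libraries had a peak. This left 32998 intervals reproducible in at least 1 cell type. The other samples of the series cover acetylation of histone H3 at lysine 27 (H3K27ac) in monocytes and macrophages, the factors SMAD4 and RBPJ, and inputs.

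The Kupffer cells were untreated and came from mice that the labels give as strain Clec4f-cre, which carry a Cre recombinase driven by a gene specific to Kupffer cells, while the library names in the file headers state male C57B6J mice. The BMDM came from C57BL/6J mice, male per the headers, were cultured for 7 days and received GW3965 for 18 h. No untreated BMDM and no GW3965-treated Kupffer cells were profiled for LXR in these samples, so the cell type, the culture, the agonist and the strain cannot be told apart in any difference below. The same mix of 3 LXR antibodies, 2 ug of each, was used in all 4 libraries. Ages are not given in the sources used here. Nothing in the labels ties the 2 libraries of a cell type to different mice or dishes, so every p-value below reflects library-to-library spread alone and that spread may be technical.

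LXR is a pair of nuclear receptors, LXRalpha (gene Nr1h3) and LXRbeta (gene Nr1h2), that bind DNA together with RXR and are activated by oxidised forms of cholesterol. In macrophages they turn on genes that export cholesterol, remodel membrane lipids and clear dying cells, and LXRalpha is also known as a factor that Kupffer cells need to keep their characteristic genes on. GW3965 is a synthetic ligand that activates both receptors. The receptor pair prefers 2 copies of the half-site AGGTCA in the same direction with 4 bases between them, a sequence called DR4.

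Abca1, which encodes the pump that moves cholesterol out of the cell, Srebf1, which encodes the regulator of fatty acid synthesis, and Fasn, which encodes fatty acid synthase, each had an LXR interval shared by both cell types at a promoter, and the 3 promoters are shown because they hold the same pair of half-sites. All sequences are from RefSeq promoters of the build GRCm38.p6, read 5′ to 3′ on the strand of the gene, and the capitals mark the 2 half-sites. The stretches are chr4:53159897-53160012 (minus strand) for Abca1, chr11:60210588-60210703 (minus strand) for Srebf1 and chr11:120824707-120824797 (minus strand) for Fasn.
Abca1: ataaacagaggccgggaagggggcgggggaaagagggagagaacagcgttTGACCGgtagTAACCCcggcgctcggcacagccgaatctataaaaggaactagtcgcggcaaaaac
Srebf1: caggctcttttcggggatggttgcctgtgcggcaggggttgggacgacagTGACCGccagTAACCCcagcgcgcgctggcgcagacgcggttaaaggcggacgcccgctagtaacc
Fasn: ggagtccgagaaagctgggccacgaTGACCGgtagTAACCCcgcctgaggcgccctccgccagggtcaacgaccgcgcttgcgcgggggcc
On the opposite strand the 3 sites read GGGTTANNNNCGGTCA, which differs from a perfect DR4 at 3 of 12 fixed bases. Of 32851 mouse promoters of 300 bp, searched on both strands, these 3 alone held this sequence exactly. The sequence was first read from these 3 promoters, found among genes of the lists described below with an LXR interval at the site. That it lay under LXR intervals there was therefore fixed by the choice. The site lay 52 bp from the middle of the LXR interval at Abca1, 31 bp at Srebf1 and 21 bp at Fasn.

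Another 3 promoters under LXR intervals are shown for contrast, since they belong to genes of the 2 lists described below and hold other matches to DR4. Acsl3, which encodes an acyl-CoA synthetase, had a shared interval and 2 mismatches. The intervals at Folr2, a folate receptor of resident macrophages, and at Timd4, a receptor for dying cells, were reproducible in Kupffer cells alone, with 2 and 3 mismatches. The stretches are chr1:78657663-78657778 (plus strand) for Acsl3, chr7:101845453-101845568 (minus strand) for Folr2 and chr11:46810623-46810738 (plus strand) for Timd4.
Acsl3: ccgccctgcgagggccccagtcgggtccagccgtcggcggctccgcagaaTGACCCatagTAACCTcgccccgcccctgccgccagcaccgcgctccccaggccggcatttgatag
Folr2: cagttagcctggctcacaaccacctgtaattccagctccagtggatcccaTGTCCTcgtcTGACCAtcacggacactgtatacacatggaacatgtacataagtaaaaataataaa
Timd4: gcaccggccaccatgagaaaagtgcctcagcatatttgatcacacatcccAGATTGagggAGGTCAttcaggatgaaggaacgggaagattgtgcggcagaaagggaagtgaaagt
The 6 promoters were picked after their values were seen. Irf9 with 2 mismatches and Arl4c with 3 were also found and are not shown. Matches with at most 2 mismatches to DR4 were not common under LXR intervals at promoters, with 2.47% of 2188 promoters under shared intervals and 1.93% of 1761 under intervals of Kupffer cells only, against 3.02% of all promoters. Matches with at most 3 mismatches, as at Abca1, Srebf1, Fasn and Timd4, were frequent everywhere. They were in 21.9% of all promoters, 19.0% of those under shared and 15.2% of those under Kupffer-only intervals. A match is a description of letters and does not show a bound site.

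LXR peaks were listed at a large common set of sites and at further sites in 1 cell type alone. Kupffer cell replicates 1 and 2 had 41755 and 69824 peaks from 28.1 and 56.3 M tags, and BMDM replicates 1 and 2 had 42233 and 30354 peaks from 27.8 and 22.4 M tags. Each list overlapped its own replicate most, though at times by little. Of BMDM replicate 1 peaks, 48.2% overlapped BMDM replicate 2 and 47.7% Kupffer cell replicate 1. Of Kupffer cell replicate 1 peaks, 55.4% overlapped Kupffer cell replicate 2 and 48.3% BMDM replicate 1. How far peaks missed in a library make up the classes of 1 cell type below was not tested. Joined within a cell type, 23112 intervals were reproducible in Kupffer cells, 26.1% of its merged intervals, and 20354 in BMDM, 39.0%. Across the 4 lists, 10838 intervals had a peak in all 4 libraries and are called shared, which is 46.6% of those reproducible in Kupffer cells and 52.7% of those reproducible in BMDM. A further 7351 intervals had peaks in both Kupffer cell libraries and in neither BMDM library, and 5163 had the reverse. The rest had a peak in 1 library of the other cell type, which were 5063 intervals reproducible in Kupffer cells and 4583 in BMDM. The order of the 2 classes found in 1 cell type alone depended on list length. With each list cut to its top 30354 peaks, 5304 intervals were of Kupffer cells only and 5879 of BMDM only.

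The second Kupffer cell library stood apart from the other 3. It alone held 44048 intervals with no peak in any other library, against 6039 to 14661 for the others. Per the file headers its input carries the name of a NASH diet (a diet that produces fatty liver inflammation), whereas the ChIP library itself is named for 20 weeks of control diet, and the mismatch could not be resolved from the files. Its share of tags in peaks was 9.51%, against 14.07% to 16.83% elsewhere. Requiring both libraries keeps its private peaks out of every class below, and without it, the first library standing alone, Kupffer-only intervals numbered 18370 in place of 7351. Without the first, they numbered 51601. BMDM-only intervals numbered 11293 without BMDM replicate 1, 19894 without replicate 2, and 8826 without Kupffer cell replicate 1, in place of 5163.

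Strong sites were common to both cell types, and weak ones were often found in 1 only. Reproducible intervals were ranked by the weaker of their 2 libraries and split into 10 equal groups, called deciles. In the strongest decile of Kupffer cells, 82.4% had a peak in both BMDM libraries and 10.1% in neither, while in the weakest decile the shares were 23.8% and 50.3%. In BMDM the strongest decile had 86.4% in both Kupffer cell libraries and 5.34% in neither, and the weakest 31.3% and 44.0%. In both cell types the shared fraction fell from each decile to the next.

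**Figure D1:**
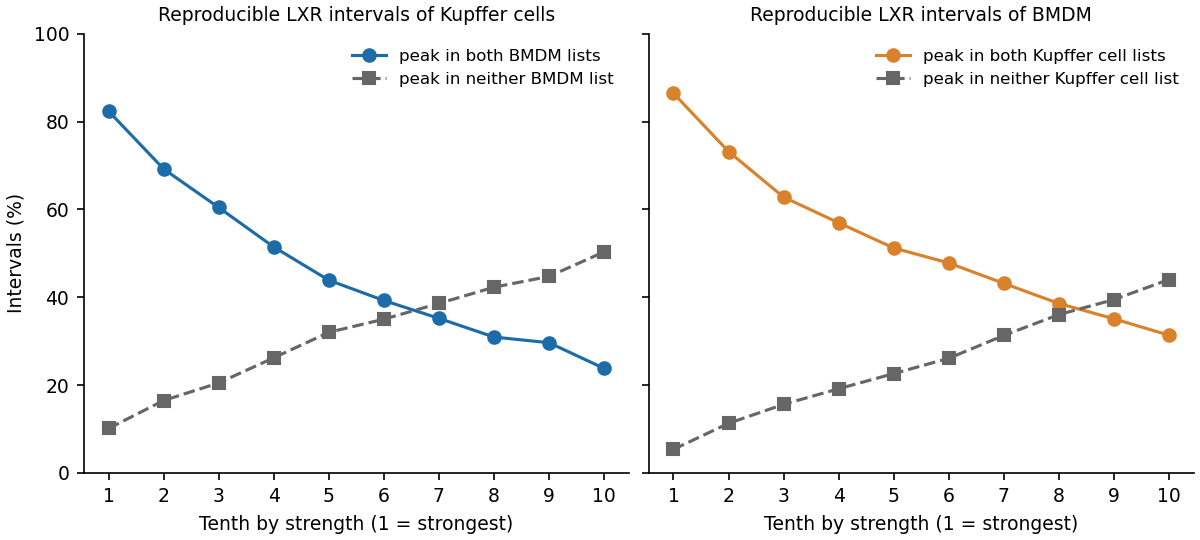
Share of reproducible LXR intervals (y axis, %) with a peak in both libraries (solid line) or in neither library (dashed line) of the other cell type, by decile of strength (x axis, 1 is the strongest). The shared fraction runs from 82.4% to 23.8% in Kupffer cells and from 86.4% to 31.3% in BMDM.

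The 10 strongest shared intervals, taking 1 per named gene within 100 kb here and in the other classes, lay near no gene of the LXR target list. Strength is the authors' normalized tag count, which is tags in the peak per 10 M tags of the library (M is 1000000). At Cltc, which encodes the clathrin heavy chain, Kupffer cells had 198.8 and 578.3 and BMDM 438.8 and 366.6 at an interval 60 bp from the start. At Frmd8 the values were 231.6 and 206.5 against 330.1 and 342.1. The other 8 were near Tob2, Tarbp2, Ptpn1, Ccdc186, Kbtbd7, Gnb2, Scrib and Birc5, and none of the 10 passed the test of a difference described below.

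Intervals of Kupffer cells alone were close to start sites more often than those of BMDM alone. Within 3000 bp of a start lay 33.5% of Kupffer-only intervals (95% Wilson interval 32.4% to 34.6%), 29.5% of shared ones (28.6% to 30.3%) and 14.6% of BMDM-only ones (13.7% to 15.6%). These intervals cover counting error only. The order was the same with a promoter window of 1000 bp, where the shares were 28.0%, 22.1% and 7.32%. Promoters under the 3 classes also differed in letters. The AP-1 site TGANTCA, bound by Fos and Jun proteins, was in 14.5% of the 228 promoters under BMDM-only intervals, 7.08% of those under shared and 3.29% of those under Kupffer-only intervals, against 7.81% of all 32851 promoters. The site GAGGAAG of PU.1, the lineage factor of macrophages, was in 22.4%, 16.4% and 12.3%, against 13.6% of all. In the opposite order stood the GC box GGGCGG, in 39.9%, 56.1% and 72.9% against 35.7% of all, and TGACGTCA, the cyclic AMP response element, in 2.19%, 2.79% and 4.43% against 1.79%. The BMDM-only share of TGACGTCA rests on 5 promoters. Its 95% Wilson interval, 0.94% to 5.03%, covers the other shares of this site, so its place in the order is not settled. The motifs were counted on both strands of 300 bp windows. Base composition differs between these promoters as the GC box shows, and its part in the other shares was not tested.

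The 10 strongest Kupffer-only intervals included one near a gene of the Kupffer cell list and none near a classical LXR target. The strongest, chr9:95572606-95572826 (mm10, as all positions of intervals), 13082 bp from the start of Paqr9, which encodes a membrane receptor of the progestin and adiponectin receptor family, had 355.6 and 158.4 tags per 10 M. Mroh2a followed with 339.2 and 119.0, and Lepr, the leptin receptor, had 225.9 and 111.2 inside the gene. The others were near Aldh8a1, Dscaml1, Mrpl3, Dysf, Slc45a3, Slc1a3, which encodes a glutamate transporter, and Gsr, which encodes glutathione reductase. These values chose the members and are a description. In the BMDM lists these 10 intervals have no peak, which says only that no peak passed the authors' thresholds.

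The strongest BMDM-only interval lay at chr1:191230541-191230703, 47289 bp from Atf3, which encodes a stress-induced transcription factor, with 546.5 and 700.2 tags per 10 M. Next stood Ccr1, a chemokine receptor of monocytes and macrophages, with 374.4 and 359.5 at 40395 bp. The remaining 8 were Ccdc90b, Pacrgl, Foxn1, Poc1a, Gas7, Eea1, which encodes an early endosome tether, Dpep2 and Rnf19a, with 182.5 to 374.2 tags per 10 M. Atf3 also had 5 shared intervals and 1 of Kupffer cells only, so the gene was near LXR in both cell types.

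Genes were joined to intervals by the nearest start site within 100 kb, which does not show that an interval acts on the gene. Of 21900 protein-coding genes, 43.1% were nearest to an interval reproducible in Kupffer cells and 37.0% to one reproducible in BMDM. Intervals of Kupffer cells only were nearest to 20.6% of genes, those of BMDM only to 14.2% and shared ones to 25.7%. Lists of macrophage genes exceeded these shares. Of 20 general macrophage genes, 19 had a Kupffer cell interval and 20 a BMDM interval, and of 34 macrophage transcription factors 33 and 32 did.

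Most LXR target genes were near an LXR interval in both cell types. Of 39 listed targets, 36 had a Kupffer cell interval and 36 a BMDM interval, 35 of them the same genes, and 32 had a shared interval. With a fold over input of at least 8 the counts were 35 and 27, and within 20 kb of a start 34 and 31. Intervals of Kupffer cells only were near 22 and those of BMDM only near 14. The 2 targets with no reproducible interval were Abcg5, a sterol pump of hepatocytes and gut, and Apoc4. Fads2, which encodes a fatty acid desaturase, had a BMDM interval only, 990 bp from its start with 34.6 and 77.2, and Spic, which encodes a transcription factor of iron-recycling macrophages, had Kupffer cell intervals only.

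Cholesterol export genes carried several intervals each. Abca1 was nearest to 15 intervals of Kupffer cells and 16 of BMDM, 11 of them shared, and Abcg1, which loads cholesterol onto lipoproteins, to 10 and 9 with 8 shared. The Apoe and Apoc1 genes, neighbours that encode apolipoproteins, differed by position. Apoc1 had a Kupffer-only interval 523 bp from its start with 109.4 and 54.2, and a shared one 976 bp away with 117.9 and 50.1 in Kupffer cells and 90.7 and 128.9 in BMDM. Npc2, which carries cholesterol out of lysosomes, had a Kupffer-only interval 89 bp from its start with 43.1 and 33.0.

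Kupffer cell identity genes had Kupffer-only intervals more often than BMDM-only ones. All 30 genes of this list had an interval reproducible in Kupffer cells and 21 had one in BMDM. Intervals of Kupffer cells only were near 24 of the 30, and intervals of BMDM only near 2, Id3 and Nr1h3. The 9 genes with no reproducible BMDM interval were Agtr2, C6, Cd207, Cd209f, Clec4f, Paqr9, Pdk4, Spic and Timd4. The count of 2 was 10 without Kupffer cell replicate 1, 9 without BMDM replicate 1 and 12 without BMDM replicate 2, and the count of 24 stayed within 1.5 times. The list was drawn up with earlier results of these data known, and it gets no test.

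Timd4, whose product binds phosphatidylserine on dying cells, had the most of these, with 14 Kupffer-only intervals and no reproducible one in BMDM. The strongest, over the promoter printed above, had 90.1 and 50.6 tags per 10 M. Clec4f, the lectin that defines Kupffer cells, had 4 Kupffer-only intervals, the strongest at chr6:83631883-83632089, 24130 bp away, with 202.0 and 82.2. C6, a complement component, had 1, inside the gene with 191.0 and 78.8. Marco, a scavenger receptor, was near 6 Kupffer-only intervals and 1 shared one. Cd38, an enzyme that consumes NAD, had 4 Kupffer-only intervals, with 156.4 and 48.1 at the strongest, 660 bp from the start, beside 4 shared ones. Id3 and Spic, transcription factors of Kupffer cell identity, had Kupffer-only intervals of 86.2 and 34.1, and of 30.6 and 26.3.

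**Figure D2:**
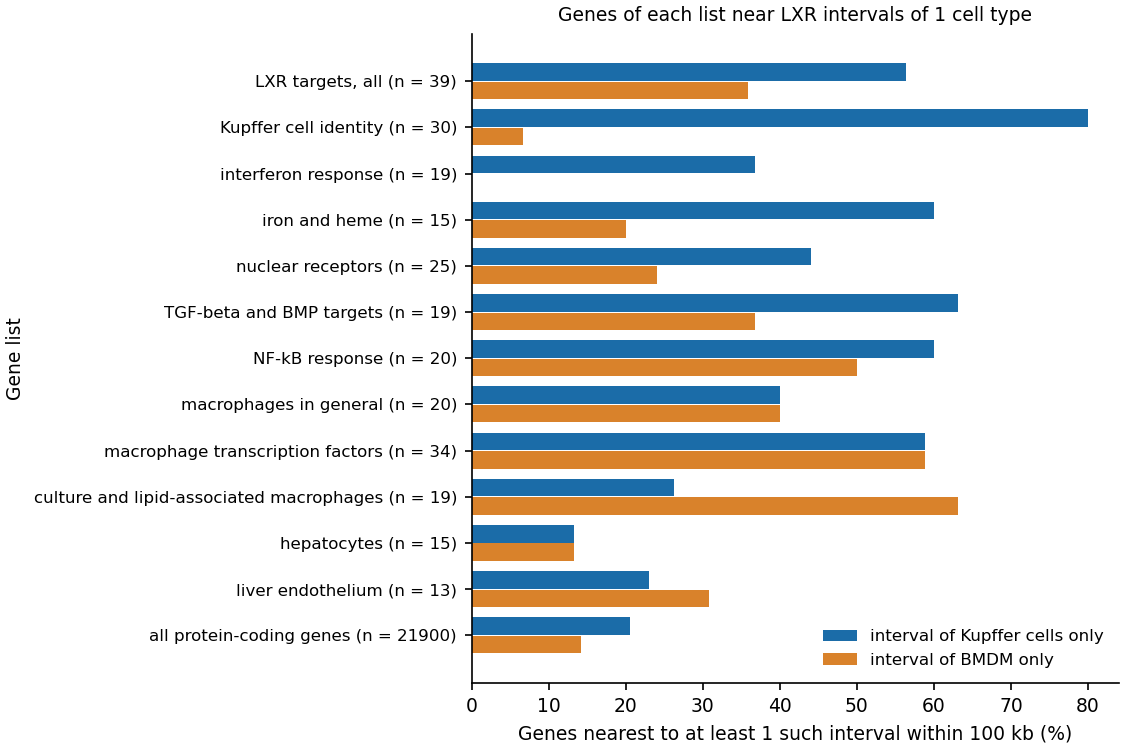
Share of the genes of each list (x axis, %; number of genes in brackets) that were nearest to at least 1 LXR interval of Kupffer cells only or of BMDM only within 100 kb. Kupffer cell identity genes reached 80.0% and 6.67%, culture and lipid-associated macrophage genes 26.3% and 63.2%, and all protein-coding genes 20.6% and 14.2%.

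Genes of cultured and lipid-associated macrophages leaned the other way. Of 19 such genes, 12 were near a BMDM-only interval and 5 near a Kupffer-only one. Gpnmb, which encodes a glycoprotein of lipid-laden macrophages, and Spp1, which encodes osteopontin, had 3 BMDM-only intervals each and none in Kupffer cells. The strongest at Gpnmb had 61.2 and 124.4, and at Spp1, 108 bp from the start, 51.5 and 41.5. Interferon response genes leaned towards Kupffer cells. Of 19, 16 had a Kupffer cell interval and 9 a BMDM interval, and 7 against 0 had one of that cell type only. Ifit3, which encodes an antiviral protein, had a Kupffer-only interval with 80.5 and 47.6.

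Nuclear receptor genes also had more Kupffer cell intervals than BMDM ones, as did protein-coding genes as a whole. Of 25, 19 had a Kupffer cell interval and 13 a BMDM one, with 11 near a Kupffer-only and 6 near a BMDM-only interval. Thrb, a thyroid hormone receptor, had a Kupffer-only interval inside the gene with 225.5 and 73.3. Rxra, the partner of LXR, had a Kupffer-only interval with 209.9 and 73.7 and, next to it, a BMDM-only one with 90.4 and 160.1. Genes of iron and heme handling split 9 to 3 of 15 between Kupffer-only and BMDM-only intervals, targets of TGF-beta and BMP 12 to 7 of 19, Notch targets 6 to 4 of 14 and NF-kB response genes 12 to 10 of 20. Macrophage transcription factors split 20 to 20 of 34 and general macrophage genes 8 to 8 of 20. Over all protein-coding genes the shares were 20.6% for Kupffer-only and 14.2% for BMDM-only intervals, which lean the same way as most of these lists. Whether any list departs from that general lean was not tested.

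Marker lists of other cell types lay on both sides of the shares over all genes, which were 43.1% for Kupffer cells and 37.0% for BMDM. Reproducible Kupffer cell intervals were near 3 of 15 hepatocyte markers, 6 of 13 liver endothelium markers, 3 of 11 stellate cell markers, 4 of 12 neutrophil markers, 4 of 11 lymphocyte markers, 7 of 12 dendritic cell markers and 2 of 10 erythroid markers, with BMDM at 3, 7, 4, 4, 3, 7 and 2. Dendritic cell markers, at 58.3% in both cell types, and liver endothelium markers, at 46.2% and 53.8%, were above those shares, and the other 5 lists were below them in Kupffer cells. Members of 1 list differed. The hepatocyte genes Alb, Fga and Cps1, the collagen genes Col1a1 and Col3a1 and the lymphocyte gene Cd3e had none in either cell type. The hepatocyte gene Ttr had 4 intervals in Kupffer cells and 3 in BMDM, the stellate cell gene Pdgfrb 1 and 3, and the lymphocyte gene Cd3d 1 and 1.

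Strength was then compared at the 10838 shared intervals with limma on log2(normalized tag count + 1), calling an interval at a Benjamini-Hochberg adjusted p below 0.05 together with a 2-fold change or more. As deposited, 6 intervals were stronger in Kupffer cells (0.0554%) and 422 in BMDM (3.89%). The median difference over all intervals was -0.87 on the log2 scale, and -0.34 without the second Kupffer cell library. Relative to the mean of the 4 libraries, the library medians were 0.10 and -0.95 in Kupffer cells and 0.35 and 0.50 in BMDM. With each library centred on its own median, 601 intervals were stronger in Kupffer cells (5.55%) and 619 in BMDM (5.71%). All 6 and 402 of the 422 were also called after centring. Values below are given with both tests, and the centred one states a difference relative to the median interval. The lean towards BMDM as deposited was seen in the tag count and not in the findPeaks score. That score counts at most 1 tag per position (2 in the second Kupffer cell library), a limit the tag count lacks. The score had medians over shared intervals of 87 and 26 in Kupffer cells and 23 and 15 in BMDM. With the score centred, 333 intervals were stronger in Kupffer cells and 492 in BMDM. How far repeated positions make up the lean was not tested. Calls needed both BMDM libraries: without BMDM replicate 1, 0 were called in either direction as deposited (238 at an unadjusted limma p under 0.05) and 29 and 19 after centring, and without replicate 2, 0 (154 at an unadjusted p under 0.05) and 59 and 41.

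LXR targets that were called were all stronger in agonist-treated BMDM. The 39 targets had 81 shared intervals, of which 10 as deposited and 14 after centring were stronger in BMDM and 0 in Kupffer cells by either limma test. With edgeR on whole tags 13 and 0 were, and with DESeq2 15 and 1. The median of the 81 intervals was -0.33 after centring, against -0.01 for all shared intervals, and most were not called. Kupffer cell identity genes had 42 shared intervals, of which 1 as deposited and 5 after centring were stronger in Kupffer cells and 0 in BMDM. Their median was 0.00 after centring. With a BMDM library left out, no LXR target interval was called as deposited or after centring, and 1 or 3 identity gene intervals were called after centring. With Kupffer cell replicate 1 left out, identity gene intervals were called in both directions, 2 in favour of Kupffer cells and 28 of BMDM as deposited and 4 and 3 after centring. Without Kupffer cell replicate 2 they were 4 and 3 as deposited and 7 and 0 after centring. The 10 calls for LXR targets as deposited became 60 without Kupffer cell replicate 1 and 24 without replicate 2.

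Mylip, which encodes a ubiquitin ligase that removes the LDL receptor from the cell surface, had the highest BMDM values among the called target intervals. At chr13:45391589-45391791, 1948 bp from its start and inside the gene, Kupffer cells had 205.6 and 71.2 tags per 10 M and BMDM 971.6 and 1243.9. In tag count the groups did not overlap, with a log2 difference of -3.17 (SE 0.69, limma, adjusted p = 0.00165) as deposited and -2.32 (SE 0.42, limma, adjusted p = 0.00451) after centring. In findPeaks score the groups overlapped, with 240 and 75 in Kupffer cells against 205 and 174 in BMDM. The centred difference of the score was -1.80 (limma, adjusted p = 0.0393).

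At Abcg1, 4 of 8 shared intervals were called in favour of BMDM after centring. The largest difference was 19089 bp from a start, with 90.1 and 41.7 in Kupffer cells against 588.9 and 683.7 in BMDM, a centred log2 difference of -2.50 (SE 0.38, limma, adjusted p = 0.00146). At Abca1 4 of 11 were called. An interval 67960 bp from the start had 148.6 and 56.1 against 702.0 and 825.1, centred -2.19 (SE 0.40, limma, adjusted p = 0.00440). The promoter interval with the printed site had 125.4 and 45.5 against 330.8 and 351.9, centred -1.30 (SE 0.38, limma, adjusted p = 0.0371), and was not called as deposited (limma, adjusted p = 0.0699). No difference was called 1018 bp from the Abca1 start, where 172.4 and 84.7 stood against 233.6 and 181.5 and the centred difference was 0.09 (limma, adjusted p = 0.904). Intervals of the same gene thus differed among themselves.

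Lipid synthesis genes were mixed. The Fasn promoter interval printed above had 127.5 and 51.1 against 368.3 and 394.3 and was called after centring (-1.37, SE 0.38, limma, adjusted p = 0.0296) but not as deposited (limma, adjusted p = 0.0599). The Srebf1 promoter interval, with the same half-sites, had 278.3 and 56.6 against 523.1 and 591.4 and missed the threshold in both (limma, adjusted p = 0.0583 as deposited and adjusted p = 0.0742 after centring). Scd1, which encodes stearoyl-CoA desaturase, had 1 called interval, at 13533 bp with 79.5 and 24.9 against 243.7 and 339.0, and another at 19012 bp with 190.3 and 85.4 against 225.7 and 316.7 that was not called. The Acsl3 promoter interval had 98.0 and 33.4 against 159.5 and 177.1 and Lpcat3, which remodels phospholipids, 93.3 and 35.0 against 118.4 and 122.7, neither called.

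Clearance and immune targets had 2 called intervals among 22. Mertk, a receptor for dying cells, had 120.1 and 37.1 against 315.7 and 416.6 at 48736 bp, inside the gene, centred -1.57 (limma, adjusted p = 0.0194). The lipid scavenger receptor Cd36 had 44.2 and 15.1 against 155.9 and 166.8 at 44241 bp, centred -1.73 (limma, adjusted p = 0.0115). The strongest Kupffer cell intervals of Axl (252.6 and 105.3 against 205.9 and 271.6) and Tgm2 (220.9 and 132.5 against 200.9 and 217.2) overlapped between the groups and were not called.

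**Figure D3:**
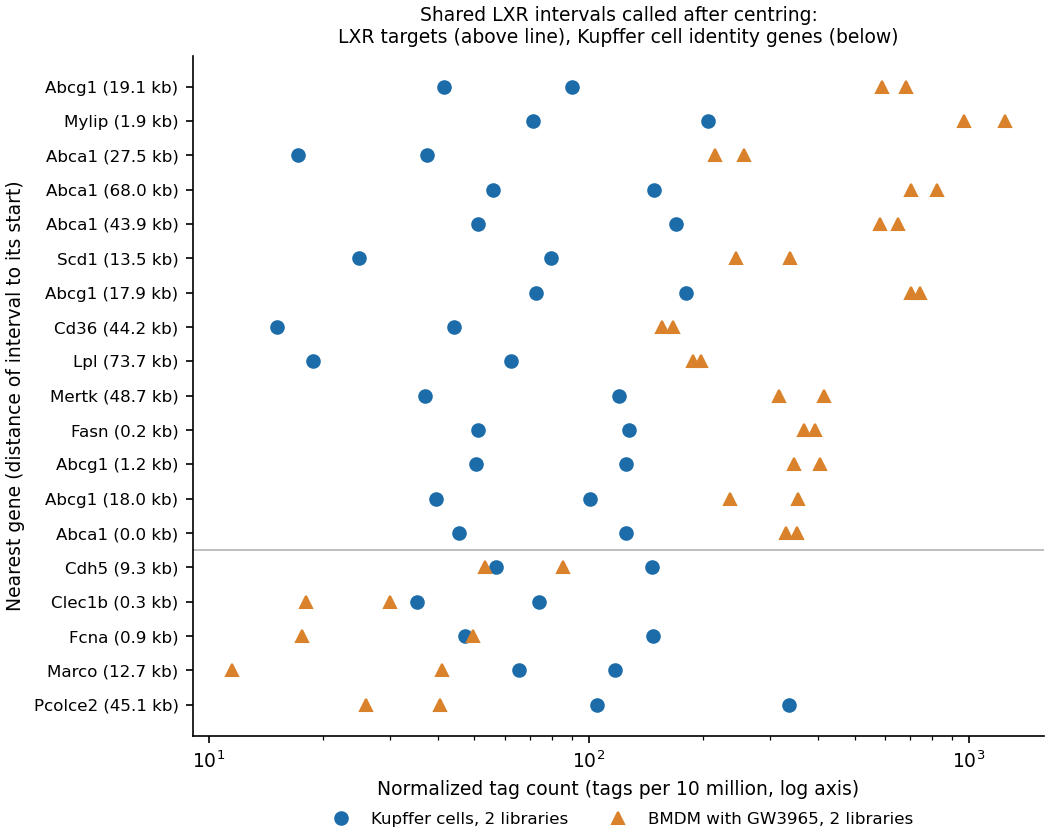
Normalized tag counts as deposited (x axis, tags per 10 M, log axis) of the shared LXR intervals of LXR target genes (above the line) and Kupffer cell identity genes (below) that were called after centring, 1 point per library. In this measure the 14 target intervals have both BMDM libraries above both Kupffer cell libraries, and the 5 identity gene intervals have their highest value in Kupffer cells. At Mylip, Fasn and the Abca1 promoter, among others, the findPeaks scores overlap between the cell types.

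The 5 identity gene intervals called after centring belonged to Pcolce2, Marco, Fcna, Clec1b and Cdh5. Pcolce2, which encodes an enhancer of procollagen processing, had 335.3 and 104.9 in Kupffer cells against 25.9 and 40.6 in BMDM at chr9:95682634-95682863, inside the gene. It was called as deposited (2.50, SE 0.79, limma, adjusted p = 0.0443) and after centring (3.35, SE 0.39, limma, adjusted p = 0.000227). The shared Marco interval had 117.2 and 65.3 against 11.5 and 41.0, and was called after centring only (2.80, SE 0.50, limma, adjusted p = 0.00378). Fcna, a ficolin that recognises microbial sugars, had 147.1 and 47.1 against 17.6 and 49.5, which overlap as deposited, with a centred difference of 2.32 (limma, adjusted p = 0.00702). Clec1b, a receptor for podoplanin, had 73.8 and 35.3 against 18.0 and 29.9, centred 1.96 (limma, adjusted p = 0.0118). Cdh5, an adhesion protein best known from endothelium, had 146.4 and 57.0 against 53.3 and 85.6, which also overlap, centred 1.29 (limma, adjusted p = 0.0420).

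Outside the lists, Rasgef1b, which encodes an exchange factor for Ras-like proteins, was also called in favour of Kupffer cells as deposited. Its interval at chr5:99339636-99339998, 86890 bp from the start, had 214.1 and 120.2 against 15.8 and 28.1, a log2 difference of 2.87 (SE 0.78, limma, adjusted p = 0.0182). Among called intervals above the median level of called intervals, with no overlap of libraries and 1 per gene, the 10 largest centred differences in favour of Kupffer cells were at Rasgef1b, Pcolce2, Rasgrp2, Slc25a33, Cd164, Rgs1, Ap1g1, Cyth1, Smchd1 and Mroh2a, with centred differences of 2.53 to 3.72. Mroh2a thus had a shared interval stronger in Kupffer cells (215.9 and 90.0 against 33.8 and 54.4) 266 bp from its start, near the Kupffer-only one named above. In favour of BMDM, within the same limits, the 10 largest as deposited were at Bin1, Morn4, Pcnx4, Klk1b9, Zbtb22, Ago4, Wdfy2, Car11, Cert1 and Bcl2l12, with differences of -3.81 to -4.92. These are not centred and hold the median difference of -0.87 over all shared intervals. Their size is therefore not to be set against the centred range above. At Bin1, which encodes a membrane-bending protein, 24.2 and 10.1 stood against 478.8 and 530.3. At Cert1, which moves ceramide between membranes, 103.0 and 28.9 stood against 752.0 and 847.0.

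Macrophage transcription factor genes had 116 shared intervals, with 3 stronger in Kupffer cells and 13 in BMDM after centring (1 and 6 as deposited). The promoter of Mitf, a factor of lysosome and osteoclast genes, had 62.3 and 73.5 against 375.1 and 445.6, centred -1.72 (limma, adjusted p = 0.0213). Rbpj, the DNA-binding factor of Notch signalling, had 38.5 and 20.4 against 275.0 and 336.3 at 80624 bp, centred -2.54 (limma, adjusted p = 0.00114). In the other direction the Bhlhe40 promoter, whose product is a transcriptional repressor, had 85.5 and 25.9 against 7.56 and 7.58, centred 3.35 (limma, adjusted p = 0.000674). Culture and lipid-associated macrophage genes had 7 of 38 shared intervals stronger in BMDM after centring and 0 in Kupffer cells, among them Vegfa, a growth factor of vessels, with 22.1 and 10.7 against 127.1 and 176.6. Interferon response genes had 9 shared intervals and 0 calls in either direction by limma or by edgeR.

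H3K27ac, which marks regulatory DNA in use and was measured in other libraries, differed between the LXR classes. Regions of 2000 bp were tested between Kupffer cells and blood Ly6C-high monocytes of C57BL/6J mice, 2 libraries each, with edgeR on the deposited tag counts. Of 80982 regions, 24.9% were higher and 17.7% lower in Kupffer cells. A region was given an LXR class only where all its reproducible LXR intervals were of that class. Regions with a Kupffer-only LXR interval were higher in 41.8% and lower in 8.62% of 7690, with a median log2 difference of 0.66. Regions with a shared interval had 38.1% and 9.74% of 13692 and a median of 0.56. Regions with a BMDM-only interval went the other way, with 12.6% higher and 39.4% lower of 3545 and a median of -0.90. Regions with no reproducible LXR interval, which may still hold a peak of 1 library, had 16.2% and 22.1% of 41033 and -0.45.

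The levels give the same picture by library. In regions with a Kupffer-only LXR interval the median H3K27ac level was 10.5 and 10.7 counts per M tags in regions (CPM) in Kupffer cells. It was 3.39 and 3.30 in monocytes and 3.81 and 3.66 in repopulating liver macrophages (RLM), from Clec4f-cre/Rosa26iDTR mice given diphtheria toxin 24 h earlier. In regions with a BMDM-only interval it was 1.31 and 1.11 in Kupffer cells against 2.81 and 2.48 in monocytes. BMDM without agonist, cultured for 4 days, have a separately normalized table of regions. Its regions with a BMDM-only interval had medians of 5.05 and 5.03 CPM and those with a Kupffer-only one 6.44 and 6.55. LXR intervals outside the regions of a table have no value in these medians, which was more frequent for Kupffer-only intervals in the BMDM table. Regions with no reproducible LXR interval had 1.24 and 1.14. BMDM thus carried H3K27ac at many Kupffer-only LXR intervals: 64.3% of these overlapped a region of the untreated BMDM list, against 82.0% for the Kupffer cell list. Of the BMDM-only intervals 90.4% and 39.9% did. The BMDM list held 81691 regions and the Kupffer cell list 59693, so these shares too are to be read within a list. The monocyte list, of 59900 regions, overlapped 51.8% of Kupffer-only and 54.8% of BMDM-only intervals.

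**Figure D4:**
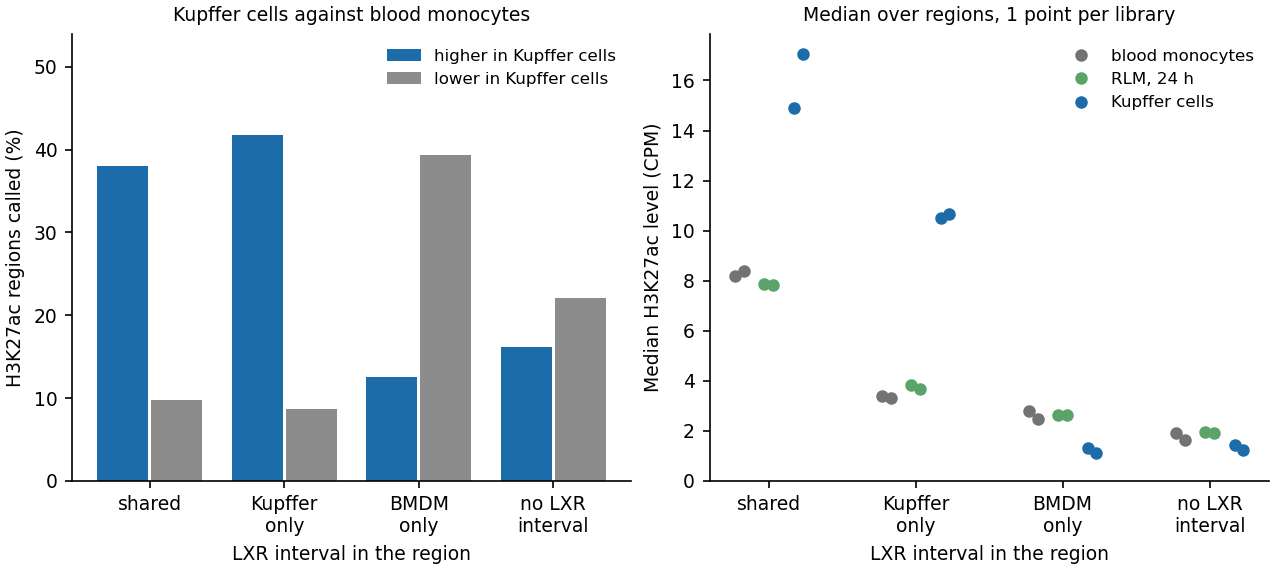
Left, share of H3K27ac regions (y axis, %) called higher or lower in Kupffer cells than in blood monocytes, by the LXR interval in the region. No LXR interval means no reproducible one, and regions with intervals of several classes are left out. Right, median H3K27ac level over regions (y axis, CPM), 1 point per library, where Kupffer-only regions reach 10.5 and 10.7 in Kupffer cells and 3.30 to 3.81 in the other 4 libraries.

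Several named Kupffer-only intervals sat in regions with large H3K27ac differences. The region at the strongest Clec4f interval had 25.5 and 42.8 CPM in Kupffer cells, 0.413 and 0.495 in monocytes and 1.97 and 1.93 in RLM, a log2 difference of 6.21 over monocytes (edgeR, adjusted p = 1.42e-22). At the Timd4 promoter Kupffer cells had 45.8 and 55.8 and monocytes 1.32 and 0.165, with a difference of 6.08 (edgeR, adjusted p = 5.96e-22). The Paqr9 region had 46.0 and 69.4 against 1.16 and 0.991. The region at the shared Marco interval was lower in Kupffer cells than these, at 6.91 and 3.34, and that at the Kupffer-only Spic interval had 2.74 and 2.64. At the Abca1 interval 1018 bp from the start, monocytes had 2.31 and 2.48, RLM 77.3 and 85.6 and Kupffer cells 67.0 and 94.2, so RLM already had the level of Kupffer cells. The Cd38 region with a Kupffer-only interval had 1.24 and 1.73, 31.9 and 31.6, and 60.1 and 73.6 in the same order. The BMDM-only Atf3 interval had 3.10 and 1.76 CPM in Kupffer cells and 3.97 and 4.71 in monocytes, and the BMDM table, normalized apart, had 49.3 and 49.4.

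SMAD4, the shared mediator of TGF-beta and BMP signals, and RBPJ, both profiled in Kupffer cell nuclei of Clec4f-cre mice and in C57BL/6J BMDM of 4 days of culture without agonist, overlapped the LXR classes by cell type. A reproducible SMAD4 peak of Kupffer cell nuclei lay at 37.6% of Kupffer-only LXR intervals, 63.0% of shared ones and 3.64% of BMDM-only ones. A SMAD4 peak of BMDM lay at 12.4%, 53.1% and 28.4%. For RBPJ the shares were 9.45%, 23.9% and 0.678% in Kupffer cell nuclei, where 5444 peaks were reproducible, and 39.4%, 89.8% and 79.1% in BMDM, where 62698 were. The size of these lists differs, so shares are to be read within a list.

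Among shared LXR intervals the strength of LXR ran with SMAD4. Of the 601 stronger in Kupffer cells after centring, 82.0% had a SMAD4 peak of Kupffer cell nuclei and 35.9% one of BMDM. Of the 619 stronger in BMDM, 46.7% and 70.8% did, and of the 9618 not called, 62.8% and 53.0%. RBPJ peaks of Kupffer cell nuclei lay at 38.8% of the first group and 13.1% of the second, and those of BMDM at 70.9% and 94.5%. H3K27ac was higher in Kupffer cells than in monocytes at 51.8% of the regions of the first group, 40.8% of the second and 39.2% of those not called. Intervals within 3000 bp of a start made up 42.8%, 19.7% and 29.3%. These overlaps share no library with the LXR lists, and their differences were not tested.

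**Figure D5:**
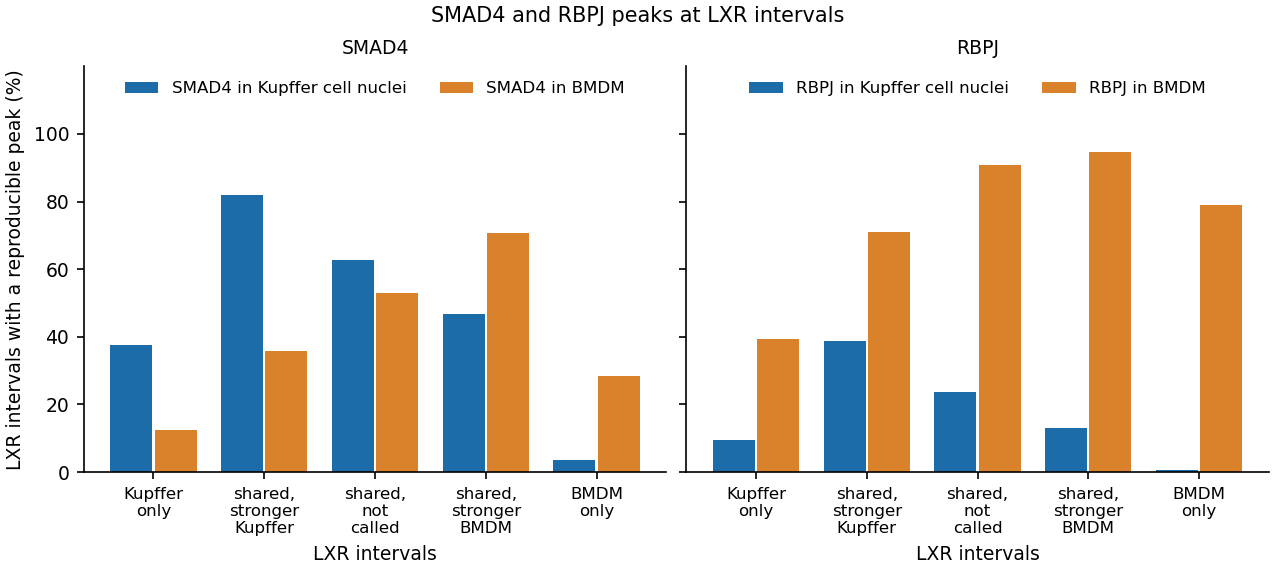
Share of LXR intervals (y axis, %) that overlap a reproducible SMAD4 peak (left) or RBPJ peak (right) of Kupffer cell nuclei or BMDM, for the Kupffer-only, shared and BMDM-only classes, with shared intervals split by the centred test. SMAD4 of Kupffer cell nuclei runs from 82.0% to 46.7% across the shared groups while SMAD4 of BMDM runs from 35.9% to 70.8%.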

How the data were processed

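LXR, SMAD4 and RBPJ files are peak lists that the authors made with HOMER findPeaks, library by library, each against 1 input. Peaks had to pass, per the file headers, 4-fold enrichment against input, the same against 10000 bp around them, a Poisson threshold of 0.0001 and an FDR of 0.001. Bowtie2, HOMER and mm10 appear in the submitters' processing notes. Versions are not given in the sources used here. The signal deposited by the authors is a normalized tag count (tags per 10 M). The deposited lists also hold a findPeaks score. Fold enrichment against input is a ratio, deposited by the authors. Per the file headers, the score counts at most 1 tag per position (2 in the second Kupffer cell library), while the tag count has no such limit. H3K27ac files hold raw tag counts per 2000 bp region, deposited by the authors for groups of libraries.

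From these, intervals were joined at 1 bp of overlap, keeping the strongest peak of a library. Gene starts came from a GRCm38.p6 table, with no exon positions. limma 3.58.1 (trend, pseudocount 1) tested shared intervals, and edgeR 4.0.16 (quasi-likelihood, robust, TMM, filterByExpr, 6 libraries in 1 fit) tested H3K27ac, in R 4.3.3. Both adjust by Benjamini-Hochberg. DESeq2 1.42.0 was an alternative. Tests were tried on simulated data. The exact permutation test of 2 against 2 libraries cannot go below p = 0.333, so none is given. Tag counts times library size were whole in 100% of peaks within rounding, which allowed the tests on whole tags.

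Named intervals are, per class, the 10 strongest by the weakest library; per direction, the 10 largest differences among called intervals above the median level of called intervals and with no overlap of libraries; and each list gene's strongest interval per cell type (up to 4 genes for lists other than LXR targets and identity genes), with 1 interval per gene and no predicted symbols. The members and the 20 gene lists were chosen with earlier results of these data known. Other intervals named were chosen after their values were seen. The main tests did not treat same-numbered libraries as paired. The correlation of their deviations was 0.018 for LXR and 0.049 for H3K27ac, which with 2 libraries a group cannot show whether they were paired. Inputs were not analysed here.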

Additional observations from a re-analysis of the deposited data

How the results depend on the processing

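Of 183 alternatives to the counts and shares above, 140 stayed within 1.5 times or within the interval of the value, among them all 64 for H3K27ac. A fold over input of at least 8 left 11754 reproducible BMDM, 5654 shared and 3165 BMDM-only intervals. It gave promoter shares of 38% for Kupffer-only, 12.8% for BMDM-only and 25.3% for shared intervals, and a promoter window of 1000 bp gave 28.0%, 7.32% and 22.1%. With 1 library left out and the other standing alone, reproducible Kupffer cell intervals ranged from 23112 to 69824, BMDM ones from 20354 to 42233, Kupffer-only ones from 9151 to 51601 and BMDM-only ones from 6155 to 19894.

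Intervals stronger in Kupffer cells numbered 601 with centring, 333 with centred findPeaks scores, 628 with edgeR and 788 with DESeq2, the last 2 on whole tags. DESeq2 gave 677 stronger in BMDM. The replicate block gave 0 and 11 as deposited, 871 and 788 with edgeR, and 611 and 598 with centring. With each library left out as deposited, 0 to 275 were stronger in Kupffer cells and 0 to 6087 in BMDM, and after centring 29 to 677 and 19 to 913. Calls went to 0, or to 59 and fewer, where a BMDM library was left out. The cause was not tested, but the spread then rests on the 2 Kupffer cell libraries alone, the lone BMDM library being assumed to vary like them. The scores, the edgeR block, and the block and left-out libraries with centring were added after seeing the data.

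Limits: 2 libraries a group, an unresolved input name, and peak thresholds that turn a weak signal into none. An interval of 1 cell type had a peak of the other within 200 bp in 5.66% of Kupffer-only and 6.76% of BMDM-only cases. Shared intervals were selected for a peak in every library, which can leave out large differences.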

Other observations

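Neighbouring intervals of different classes were seen at genes of the LXR complex. At Rxra the Kupffer-only interval (chromosome 2, 27740132 to 27740346) and the BMDM-only interval (27740361 to 27740520) lie inside the same gene and do not touch. The gap is far smaller than a called peak, which was 151 to 203 bp wide. Joining at 1 bp of overlap keeps them apart, and whether they are 1 bound site was not tested. At Nr1h3, the gene of LXRalpha itself, a BMDM-only interval 1458 bp from the start had 84.6 and 71.4 tags per 10 M, beside a shared interval at 1912 bp with 77.3 and 53.8 in Kupffer cells and 54.7 and 78.1 in BMDM. Coordinates are those of the build mm10.

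The findPeaks score and the tag count did not rank the 4 libraries alike. The median peak had 68 tags and a score of 50 in Kupffer cell replicate 1, 57 and 12 in replicate 2, 70 and 11 in BMDM replicate 1 and 87 and 10 in BMDM replicate 2. The score of the shared intervals, centred per library, still called 12 of 81 LXR target intervals stronger in BMDM and 0 in Kupffer cells, and 4 of 42 identity gene intervals stronger in Kupffer cells and 0 in BMDM.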
